A study of Mus musculus with 28 samples.

Results

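The 7 genes of hepatic glucose uptake, fructose entry and glycolysis control described here in mouse liver are Gckr, Slc2a2, Khk, Pklr, Pfkfb1, Pfkfb3 and Pfkl. Members were chosen by name, with earlier results of these data known. A gene was represented by the brightest probe set annotated to that gene alone. Of the 7 listed genes, 6 had such a probe set, 1 each, among 18820 genes with one; Pfkfb1 was not analysed here. Livers came from 28 male C57BL/6J mice, 1 array per mouse, hybridised with biotin-labelled total RNA. The switched group (n = 8) ate moderate-fat food, with 25% of energy as fat, from 9 weeks to 12 months of age and an intermittent diet after that, and was sampled at 24 months. The lifelong groups ate the intermittent diet from 9 weeks of age and were sampled at 6 months (n = 6), 12 months (n = 7) or 24 months (n = 7). The intermittent diet alternated a week of free access to the moderate-fat food with a week at 60% of the energy that control mice ate. All mice were housed singly, were fasted for 4 h, received carboxymethyl cellulose by gavage and were fasted for another 6 h before sampling, so every level below is a fasted level. The labels do not say which week of the cycle a mouse was in, and mice kept on the control, calorie-restricted or unbroken moderate-fat diets were not analysed here, so age and time on the diet cannot be told apart within the lifelong groups.

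The liver takes up glucose when blood glucose is high and releases it when it is low, and the members sit at the points where that choice is made. Glucose enters hepatocytes through GLUT2, the product of Slc2a2, and is trapped there by phosphorylation, a step that the inhibitory protein encoded by Gckr restrains. Fructose is phosphorylated by ketohexokinase (Khk), and the fructose 1-phosphate it makes relieves that inhibition. Further down, the liver subunit of phosphofructokinase (Pfkl) commits sugar to glycolysis, the bifunctional enzymes of the Pfkfb family set the level of the allosteric activator of that step, and liver pyruvate kinase (Pklr) catalyses the last reaction. Pfkfb3 is the inducible member of the Pfkfb family, known for its high kinase activity.

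Khk varied together with Gckr and with Pklr among livers of a group, and Pfkfb3 fell with age where Gckr and Khk rose. Slc2a2 also varied with Gckr and Khk, and Pfkl inversely with Khk, but neither had a promoter motif match. Promoter sequences are shown for the 4 measured members that had a match, before the start that had it. Each is the 250 bases before an annotated transcript start, from RefSeq on GRCm38.p6, written 5′ to 3′ on the gene's strand, with capitals marking motif matches. The Gckr window is chr5:31297313-31297562 on the plus strand, and its capitals are the HNF1 half-site GTTAAT. The Khk window is chr5:30921309-30921558 on the plus strand, with the E-box CACGTG and the same HNF1 half-site in capitals. The Pklr window lies before the second of 2 annotated starts, at chr3:89136373-89136622 on the plus strand, with a carbohydrate response element and the TATA box TATAAA in capitals. The Pfkfb3 window lies before the second of 2 starts, at chr2:11502091-11502340 on the minus strand, with the E-box in capitals. The starts used are not the first bases of the gene spans given below. The Gckr, Pklr and Pfkfb3 windows lie wholly inside those spans. The Khk window does so in part, and its motif matches are in that part.
Gckr: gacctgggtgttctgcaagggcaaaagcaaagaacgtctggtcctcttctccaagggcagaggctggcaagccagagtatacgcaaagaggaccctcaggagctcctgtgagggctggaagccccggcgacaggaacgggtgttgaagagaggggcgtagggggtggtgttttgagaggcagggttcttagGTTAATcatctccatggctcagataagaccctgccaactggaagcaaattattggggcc
Khk: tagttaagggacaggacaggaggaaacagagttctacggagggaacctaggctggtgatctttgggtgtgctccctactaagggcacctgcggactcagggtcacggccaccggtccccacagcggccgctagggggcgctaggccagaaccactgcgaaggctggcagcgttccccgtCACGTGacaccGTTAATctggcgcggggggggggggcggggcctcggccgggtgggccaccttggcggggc
Pklr: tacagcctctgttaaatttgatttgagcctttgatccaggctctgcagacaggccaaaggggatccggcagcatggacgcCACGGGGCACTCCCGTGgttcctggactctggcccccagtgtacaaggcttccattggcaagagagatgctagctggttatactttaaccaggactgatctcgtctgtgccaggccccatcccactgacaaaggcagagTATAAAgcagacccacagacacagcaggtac
Pfkfb3: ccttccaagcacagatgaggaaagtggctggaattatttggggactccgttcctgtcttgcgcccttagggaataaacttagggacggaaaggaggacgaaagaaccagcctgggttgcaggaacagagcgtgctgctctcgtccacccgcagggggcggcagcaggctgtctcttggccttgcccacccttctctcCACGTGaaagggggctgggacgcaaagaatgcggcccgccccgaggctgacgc
The half-site ended 54 bases before the start in Gckr and 55 bases before it in Khk, where the E-box ended 66 bases before the start. In Pklr the carbohydrate response element, CACGGGGCACTCCCGTG, ended 154 bases before the start and the TATA box 26 bases before it. The E-box in Pfkfb3 ended 48 bases before the start. Both strands were searched, and among 32817 promoter windows of the same length the E-box occurred in 6.02%, the half-site in 6.44%, the TATA box in 12.4% and the carbohydrate response element in 0.0975%. An HNF4 site, CAAAGTCCA, was found in none of the 6 measured members and in 0.384% of all windows. None of these 5 motifs was in the windows of Slc2a2 or Pfkl, or before the first starts of Pklr and Pfkfb3. A carbohydrate response element pairs 2 E-box-like parts and can overlap an E-box, and a match is a description of letters, not of a bound site.

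All values are log2 RMA values, an array summary in which a step of 1 is a doubling, and differences come from limma fitted to all 28 arrays and 35556 probe sets with array batch as a term. A difference passed where p adjusted over all probe sets by the Benjamini-Hochberg method was under 0.05. Array medians ran from 5.23 to 5.31, and correlations between arrays from 0.978 to 0.992. Hepatocyte markers, 11 genes, had mean levels of 12.61 to 12.70 in switched livers and of 12.73 to 12.82, 12.61 to 12.77 and 12.60 to 12.77 in lifelong livers at 6, 12 and 24 months, so the tissue label held in every array. The probe sets of 4 members were among the brightest on the array: the mean over all arrays was 10.12 for Gckr, 11.20 for Slc2a2, 11.39 for Khk and 11.52 for Pklr, above at least 94.1% of probe sets. Pfkfb3 (7.49) and Pfkl (7.69) were above 75.3% and 77.4%. Levels in whole liver sum over its cell types, and fewer cells of a type cannot be told apart from less RNA per cell. Levels of different probe sets are not compared further, since each has its own affinity.

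Gckr, at chromosome 5 from 31297266 to 31327302, was higher in every older group than at 6 months. Its lowest, median and highest levels were 10.13, 10.22 and 10.36 in switched livers, and in lifelong livers 9.64, 9.81 and 9.94 at 6 months, 9.95, 10.15 and 10.41 at 12 months, with 10.07, 10.19 and 10.36 at 24 months. None of the 22 older livers reached down to the range of the 6-month livers, but the lowest, at 9.95, was just above the highest 6-month liver, at 9.94. How often other probe sets separated in this way was not counted, here or below. The rise over 6 months was 0.43 in switched livers (SE 0.07, limma adjusted p = 0.000228), 0.36 in lifelong livers at 12 months (SE 0.07, limma adjusted p = 0.0275) and 0.40 at 24 months (SE 0.07, limma adjusted p = 0.00195), which is a fold of 1.35, 1.28 and 1.32. Within batches G150, G151 and G152 the switched difference was 0.46, 0.53 and 0.20, the 12-month difference 0.40, 0.32 and 0.27, and the 24-month difference 0.39, 0.39 and 0.39. The sign was the same in each batch, but G151 and G152 each held only 1 array at 6 months and 1 switched array. They held 1 or 2 arrays of each other group. Differences within G151 and within G152, here and below, thus rest on a single 6-month liver and are not replication. The 12-month call was lost in 6 of 13 fits that left out 1 liver (6-month replicates 2, 3, 4 and 6, and 12-month replicates 3 and 4, with adjusted p in limma up to 0.0855) and with only the groups compared (limma adjusted p = 0.111), and the other 2 calls in none of these. From 12 to 24 months the lifelong difference was 0.04 with a 95% interval of -0.10 to 0.18, and the order of the 3 older groups was not resolved beyond their spread.

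Khk, at chromosome 5 from 30921436 to 30931248, was likewise lowest at 6 months. It ran from 10.86 to 11.68 in switched livers (median 11.50), and in lifelong livers from 10.76 to 11.31 (median 11.04) at 6 months, from 11.30 to 11.60 (median 11.54) at 12 months and from 11.33 to 11.70 (median 11.62) at 24 months. The 24-month lifelong livers did not overlap the 6-month ones, whereas 1 liver at 12 months fell just inside the 6-month range. The difference from 6 months was 0.51 at 24 months (SE 0.10, 1.42-fold, limma adjusted p = 0.00558), 0.44 at 12 months (SE 0.10, limma adjusted p = 0.0463) and 0.39 in switched livers (SE 0.10, limma adjusted p = 0.0129). Switched replicate 7 stood low at 10.86, between the lowest and the second-lowest 6-month livers (10.76 and 10.97), and the next switched liver was at 11.28. Without that liver the switched difference from 6 months was 0.46 (limma adjusted p = 0.000678). Within G150, G151 and G152 the 24-month difference from 6 months was 0.51, 0.64 and 0.37, the 12-month difference 0.51, 0.40 and 0.28, and the switched difference 0.41, 0.56 and 0.14. The 12-month call was lost in 10 of 13 fits that left out 1 liver (6-month replicates 2, 3, 4 and 6, and 12-month replicates 2 to 7, with adjusted p in limma up to 0.146), and the other 2 calls in none. With only the groups compared in the fit, the switched call (limma adjusted p = 0.083) and the 12-month call (limma adjusted p = 0.0585) were lost. The 12-month call was lost as well with no batch term, with the replicate block and without the 2 arrays whose names carry a suffix (limma adjusted p of 0.0582 to 0.0821).

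Slc2a2, at chromosome 3 from 28697903 to 28728361, had its highest group mean at 12 months. Its lowest, median and highest levels were 11.04, 11.17 and 11.40 in switched livers, and in lifelong livers 10.78, 10.98 and 11.19 at 6 months, 11.01, 11.41 and 11.47 at 12 months, with 11.10, 11.22 and 11.50 at 24 months. At 12 months 6 of the 7 livers lay above all 6-month livers, and replicate 1 lay among the 6-month values. The 12-month difference of 0.39 (SE 0.08, limma adjusted p = 0.033) passed, while the 24-month difference of 0.25 (SE 0.08, limma adjusted p = 0.0726) and the switched difference of 0.24 (SE 0.08, limma adjusted p = 0.0528) from 6 months did not. Within G150, G151 and G152 the 12-month difference was 0.35, 0.52 and 0.31. Its call was lost with only the groups compared in the fit (limma adjusted p = 0.127), with the replicate block (0.0516), without the 2 arrays whose names carry a suffix (0.0573) and in fits of G150 alone and of G151 and G152 alone. It was also lost in 9 of 13 fits that left out 1 liver (6-month replicates 2, 3, 4 and 6, and 12-month replicates 2 to 6, with adjusted p in limma up to 0.115). Without 6-month replicate 1, the highest of that age, both other differences passed, at 0.30 for 24 months (limma adjusted p = 0.0312) and 0.29 for switched livers (limma adjusted p = 0.0208). The switched difference also passed without 6-month replicate 5 (0.26) or switched replicate 4 (0.26) or 8 (0.26), and under 5 alternative settings that kept all livers (limma adjusted p of 0.0297 to 0.0421). The 24-month difference also passed with array weights (0.27, limma adjusted p = 0.0438). All 7 lifelong livers at 24 months and all 8 switched livers were above the 6-month mean. The 24-month level was 0.14 below the 12-month level (95% interval -0.30 to 0.02, limma adjusted p = 0.525).

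Pklr, at chromosome 3 from 89136122 to 89146815, was also lowest at 6 months, with a wide spread. Levels were 11.33 to 11.83 in switched livers (median 11.56), and in lifelong livers 10.80 to 11.69 at 6 months (median 11.20), 11.17 to 12.05 at 12 months (median 11.66) and 11.12 to 11.75 at 24 months (median 11.61). The groups overlapped in every pair. Differences from 6 months were 0.34 in switched livers, 0.44 at 12 months and 0.28 at 24 months, and none passed (limma adjusted p = 0.0751, 0.0970 and 0.221). Without 12-month replicate 1, the lowest of its group at 11.17, the 12-month difference was 0.53 and passed (limma adjusted p = 0.0331). With array weights the 12-month difference (0.47, limma adjusted p = 0.0496) and the switched one (0.36, limma adjusted p = 0.0485) passed, and the switched one also with only the groups compared (0.34, limma adjusted p = 0.0484). Within G150, G151 and G152 the differences from 6 months were 0.29, 0.75 and 0.15 for switched livers, then 0.46, 0.71 and 0.18 for 12-month ones, then 0.20, 0.95 and -0.02 for 24-month ones.

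Pfkl, at chromosome 10 from 77986947 to 78009807, had its highest group mean in switched livers. It ran from 7.57 to 8.30 there (median 7.79), and in lifelong livers from 7.39 to 7.78 at 6 months (median 7.50), from 7.36 to 7.82 at 12 months (median 7.66) and from 7.50 to 7.93 at 24 months (median 7.67). The switched livers were 0.33 above the 6-month livers (SE 0.10, 1.26-fold, limma adjusted p = 0.0278), and all 8 were above the 6-month mean. The lifelong differences from 6 months, 0.13 at 12 months and 0.20 at 24 months, did not pass (limma adjusted p = 0.623 and 0.292). Against lifelong livers of the same age the switched livers differed by 0.14 (95% interval -0.06 to 0.33), so the switched group was not shown to stand apart. The switched difference from 6 months was 0.25, 0.41 and 0.65 within G150, G151 and G152. Its call was lost in 5 of the 14 fits that left out 1 liver (6-month replicates 3, 4 and 6, and switched replicates 1 and 8), with differences of 0.27 to 0.39 and adjusted p in limma up to 0.0907. It was also lost with only the groups compared (limma adjusted p = 0.107) and with the replicate block (limma adjusted p = 0.123).

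Pfkfb3, at chromosome 2 from 11471430 to 11554071, was the member that fell with age, and it differed the most between 24 and 6 months. Its lowest, median and highest levels were 6.67, 7.04 and 7.66 in switched livers, and in lifelong livers 7.27, 8.21 and 8.77 at 6 months, 7.32, 7.71 and 8.75 at 12 months, with 6.78, 6.91 and 8.04 at 24 months. All 7 livers at 24 months lay below the 6-month mean, and 6 of them below every 6-month liver; the exception was replicate 6, at 8.04. The same held for 6 of the 8 switched livers, all of which were below the 6-month mean. Pfkfb3 averaged 7.08 ± 0.36 in switched livers (SD, n = 8) and 7.10 ± 0.44 in 24-month lifelong livers (SD, n = 7), against 8.14 ± 0.51 in 6-month livers (SD, n = 6). The differences from 6 months were -1.07 for switched livers (SE 0.23, 2.10-fold lower, limma adjusted p = 0.00415) and -1.05 for lifelong livers at 24 months (SE 0.24, 2.07-fold lower, limma adjusted p = 0.0135). At 12 months the mean was between the ages on either side, 0.34 below 6 months (95% interval -0.84 to 0.16), and the later step of -0.71 from 12 to 24 months did not pass either (limma adjusted p = 0.229). Within batches G150, G151 and G152 the 24-month difference from 6 months was -0.75, -1.33 and -1.81, and the switched difference was -0.84, -1.23 and -1.96. Without 6-month replicate 6, the highest Pfkfb3 liver, the 24-month call was lost (-0.87, limma adjusted p = 0.0661), as it was with only the groups compared (-1.06, limma adjusted p = 0.0565), and the switched call stayed past the threshold in all 14 fits that left out 1 liver.

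**Figure D1:**
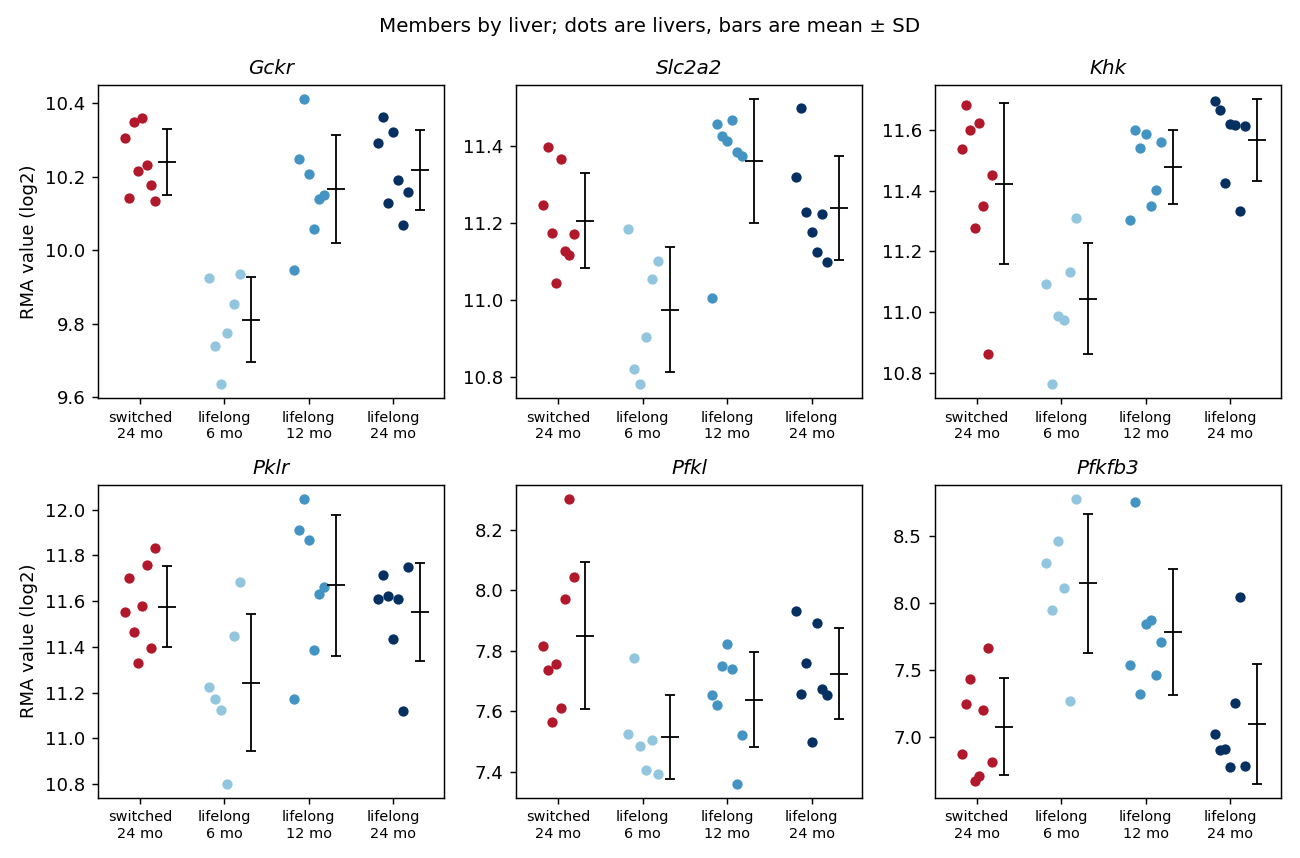
Log2 RMA value (vertical axis) of the 6 measured members in each liver, by group (switched at 24 months, then lifelong at 6, 12 and 24 months); dots are livers and bars are mean ± SD. Gckr livers at 6 months lie between 9.64 and 9.94, below every other liver, while Pfkfb3 at 24 months lies at or below 7.66 in all livers but lifelong replicate 6 at 8.04.

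Set side by side, 3 of the 6 members passed at 12 against 6 months, all higher (Gckr, Slc2a2 and Khk), where 0.591% of all probe sets passed and 0.363% passed as higher. At 24 against 6 months 3 passed, with Gckr and Khk higher and Pfkfb3 lower, beside 4.73% of all probe sets, 2.1% higher and 2.63% lower. There were 4 passes for switched livers against 6 months, with Gckr, Khk and Pfkl higher and Pfkfb3 lower, beside 10.0% of all probe sets, 4.66% higher and 5.39% lower. These 3 comparisons share the 6-month livers. With only the 21218 probe sets that name 1 gene fitted, 332, 1780 and 3152 of these passed, in the same order, a larger share each time. The members were chosen with earlier results of these data known, so their counts beside these shares describe them and do not test the set. No member passed in limma when 24-month livers were set against 12-month ones, where 0.0253% of probe sets did, when switched livers were set against 12-month ones, where 2.32% did, or when switched livers were set against lifelong livers of 24 months, where 0.0197% did. At an unadjusted p under 0.05 those 3 comparisons held 1, 2 and 0 members, beside 3953, 6210 and 2696 of all 35556 probe sets. The median difference of the 6 members was 0.37 at 12 against 6 months, 0.26 at 24 against 6 months and 0.34 for switched against 6-month livers, beside medians of 0.00, -0.02 and -0.03 over all probe sets.

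The switched group asks whether mice that started the intermittent diet at 12 months came to differ from lifelong mice at 24 months, and no member did so in limma. The intervals of the difference at 24 months, switched minus lifelong, were -0.10 to 0.16 for Gckr, -0.17 to 0.14 for Slc2a2, -0.32 to 0.08 for Khk, -0.18 to 0.31 for Pklr, -0.06 to 0.33 for Pfkl and -0.49 to 0.44 for Pfkfb3. For Gckr a change of more than 0.16 either way thus lies outside its interval, while for Pfkfb3 the interval still holds a change of 0.49. Against 12-month livers the switched livers were 0.74 lower in Pfkfb3 on the log2 scale, with all 8 below the 12-month mean (limma adjusted p = 0.0803), and 0.20 higher in Pfkl (limma adjusted p = 0.268).

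Whether the change over the earlier step differed from that over the later one was tested as the 12-to-24-month difference minus the 6-to-12-month difference. It was -0.52 for Slc2a2, -0.61 for Pklr, -0.32 for Gckr, -0.37 for Khk, -0.07 for Pfkl and -0.38 for Pfkfb3. The smallest adjusted p in limma was 0.278, for Slc2a2 (unadjusted p = 0.00074), and 0.0% of all probe sets passed, although 3289 had an unadjusted p under 0.05. The 2 steps, which differ in length, were not shown to differ for any member, and 4 of the 6 had an unadjusted p under 0.05.

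**Figure D2:**
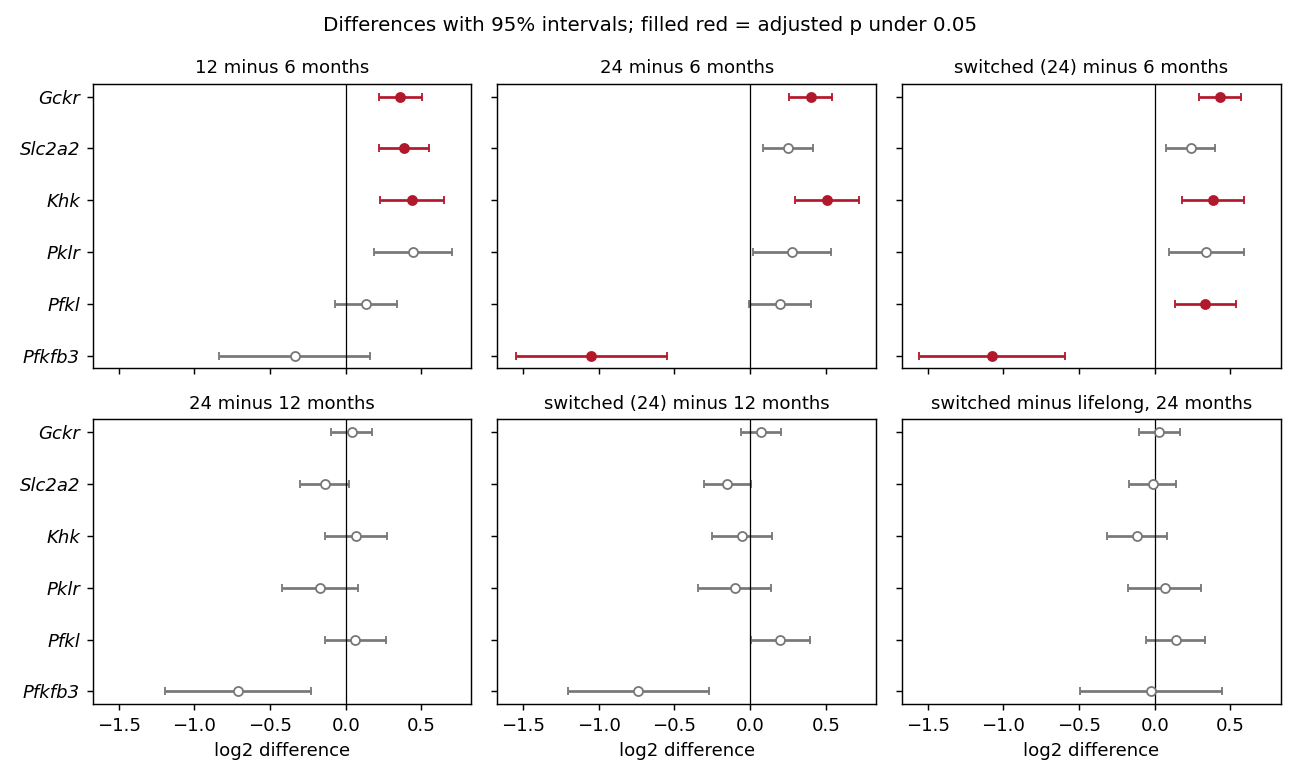
Log2 difference (horizontal axis) of each measured member in 6 comparisons, with 95% intervals from limma; filled red points have an adjusted p under 0.05. Filled points stand in the comparisons with 6 months alone, and Pfkfb3 lies at -1.05 and -1.07 in the 2 comparisons of 24-month livers with 6-month livers.

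Among livers of the same group, some pairs of members varied together. How often other gene pairs did so as strongly was not counted. With Gckr, a within-group r of 0.61, that of the gene Cebpe, ranked only 166th among 16468 genes. That r was above the r of every member with Gckr. Correlations were taken on residuals after group and batch were removed, over 28 livers and 15 pairs, with p from 100000 permutations within groups. Of these, 6 pairs passed: Gckr with Slc2a2 (r = 0.59, rho = 0.54, adjusted permutation p = 0.0167), Gckr with Khk (r = 0.52, rho = 0.62, adjusted permutation p = 0.0167), Khk with Pklr (r = 0.51, rho = 0.57, adjusted permutation p = 0.0161), Slc2a2 with Khk (r = 0.49, rho = 0.55, adjusted permutation p = 0.0298), Gckr with Pklr (r = 0.51, rho = 0.39, adjusted permutation p = 0.0359) and, in the opposite sense, Khk with Pfkl (r = -0.66, rho = -0.50, adjusted permutation p = 0.0161). Raw permutation p was 0.00444, 0.00395, 0.00125, 0.00993, 0.0144 and 0.00214 in that order, and p for rho adjusted over the 15 pairs was 0.119 for Gckr with Pklr and at most 0.0459 for the other 5. Without the 2 livers farthest from the median of the first gene, r became 0.48, 0.52, 0.53, 0.48, 0.25 and -0.48 in the same order, so the relation of Gckr with Pklr rests on those livers. Within the 18 livers of batch G150, r was 0.59, 0.50, 0.50, 0.57, 0.61 and -0.74, and within the 10 livers of the other batches 0.56, 0.71, 0.63, 0.02, 0.17 and -0.31, so the relations of Slc2a2 with Khk and of Gckr with Pklr were near 0 outside G150. None of the 5 pairs with Pfkfb3 passed, and its r ran from -0.17 to 0.08.

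**Figure D3:**
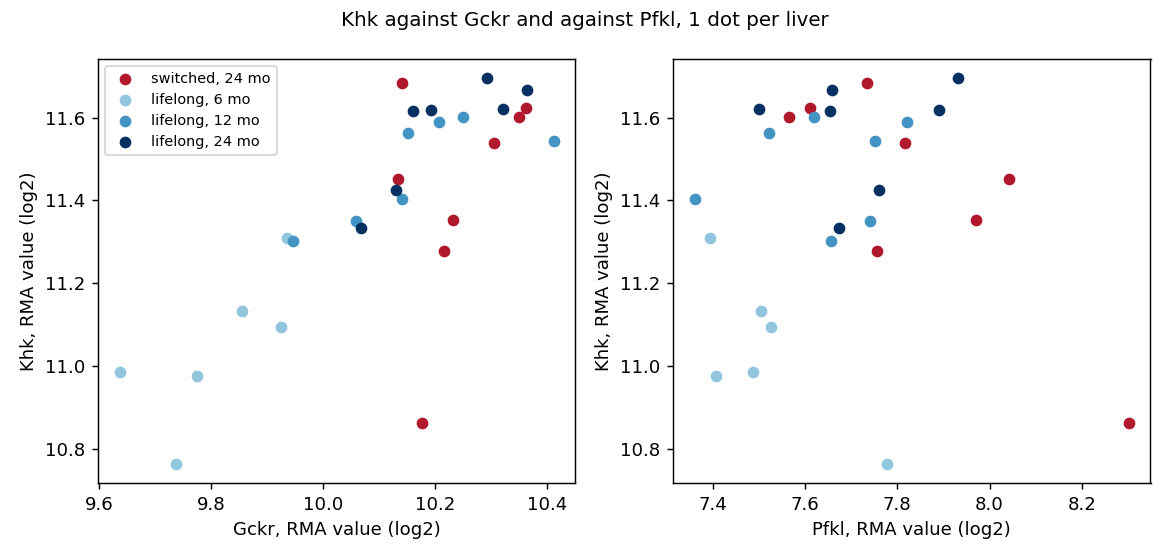
Khk level (vertical axes, log2 RMA value) against Gckr (left) and Pfkl (right) in each liver, coloured by group. Khk and Gckr go together among livers of a group, and the switched liver with the highest Pfkl, 8.30, has the lowest switched Khk, 10.86.

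The genes whose levels ran most like each member over all 28 livers were taken by Pearson r after batch was removed, among 16468 genes, and carry no p because they are the highest of that number. For Gckr they were Cds2 (r = 0.88), Dyrk1b (0.87) and Cebpe (0.86). Slc2a2 ran closest to Slc17a4 (0.86), Arhgef16 (0.84) and Neu1 (0.82), and Khk to Olfm3 (0.87), Eif4a2 (0.85) and Pemt (0.85). Pklr was closest to Acly, which encodes ATP citrate lyase (0.82), to the pyruvate dehydrogenase kinase Pdk1 (0.79) and to Thrsp (0.77). Pfkfb3 was closest to Tsc22d3 (0.81), Pcdh15 (0.81) and Prok1 (0.80), and Pfkl to Chmp4b (0.84), Arpc1b (0.82) and Renbp (0.80). No other member was among the 3 nearest genes of any member. Part of each r comes from the shared difference between groups: with group removed as well it was 0.72 for Gckr and Cds2, 0.83 for Slc2a2 and Arhgef16, 0.80 for Khk and Olfm3, 0.75 for Pklr and Acly, 0.58 for Pfkfb3 and Tsc22d3 and 0.75 for Pfkl and Chmp4b.

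Around the members, 118 of 131 other listed genes of sugar metabolism, its regulators and the hypoxia response were measured. At 24 against 6 months 7 were higher, 3 were lower and 108 did not pass, with a median difference of 0.05. For switched livers against 6 months 16 were higher, 14 were lower and 88 did not pass, with a median of 0.04. For switched against 12-month livers 1 was higher and 4 were lower. In the same order, 4.73%, 10.0% and 2.32% of all 35556 probe sets passed. With only the 21218 probe sets that name 1 gene fitted, 1780, 3152 and 1021 of these passed. The listed genes were not tested as a set. The remaining comparisons had 0 passes in limma. At an unadjusted p under 0.05 they held 9 genes for switched against lifelong livers of 24 months, 30 for 12 against 6 months and 16 for 24 against 12 months. Among all 35556 probe sets these numbers were 2696, 4643 and 3953.

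Of 4 measured genes on the fructose and sorbitol list, 1, Slc2a5, was higher and 0 were lower in both comparisons with 6 months. Tkfc, the triokinase of fructose breakdown, was lower in switched against 12-month livers (-0.29, limma adjusted p = 0.0241). Slc2a5, which encodes the fructose transporter GLUT5, was 7.73 ± 0.29 in switched livers (SD, n = 8) and 8.02 ± 0.31 in lifelong livers at 24 months (SD, n = 7), against 6.98 ± 0.28 at 6 months (SD, n = 6). It rose by 0.76 in switched livers (SE 0.17, limma adjusted p = 0.00493) and by 1.03 in lifelong livers at 24 months (SE 0.18, 2.04-fold, limma adjusted p = 0.00179), with every liver above the 6-month mean in both groups. Slc2a5 and Khk were both higher at 24 months than at 6 months in each diet history. The other measured genes of the list did not pass there. In lifelong and then switched livers, Glyctk differed by -0.26 and -0.21, Tkfc by 0.04 and -0.01 and Akr1b8 by 0.05 and 0.06. Which cells of the liver carried the Slc2a5 difference was not tested.

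Of 15 measured glycolysis enzymes, 2 were higher and 0 lower at 24 against 6 months, and 4 were higher and 0 lower in switched against 6-month livers. Aldoc, an aldolase, rose by 0.86 at 24 months (SE 0.19, limma adjusted p = 0.0103) and by 0.60 in switched livers (SE 0.18, limma adjusted p = 0.0369). Tpi1, triose phosphate isomerase, rose by 0.19 (limma adjusted p = 0.0376) and 0.25 (limma adjusted p = 0.00256) in the same comparisons. Of the other phosphofructokinase subunits, Pfkm was 0.10 higher at 24 months and 0.13 higher in switched livers, neither passing (limma adjusted p = 0.604 and 0.375). Pfkp, with group means of 5.34 to 5.75, lay close to the array medians of 5.23 to 5.31. It was 0.30 higher at 24 months without passing (limma adjusted p = 0.229) and rose by 0.41 in switched livers (limma adjusted p = 0.0495). That call was lost in 9 of 13 alternative settings and in 11 of 14 fits without 1 liver, all but those without 6-month replicate 5 or switched replicate 1 or 3. The Aldoc call in switched livers was lost in 11 of 14 such fits, all but those without 6-month replicate 5 or switched replicate 3 or 4. The Tpi1 call at 24 months was lost in 10 of 13, all but those without 6-month replicate 5 or 24-month replicate 6 or 7. Without 24-month replicate 4, Pfkp passed at 24 months (0.43, limma adjusted p = 0.0387). Pkm, the pyruvate kinase of other tissues, had differences of 0.29 at 24 months and 0.44 in switched livers that did not pass (limma adjusted p = 0.284 and 0.0535), although the switched one passed in 5 of 13 alternative settings (lowest limma adjusted p = 0.0356) and without 6-month replicate 5 or switched replicate 3 or 5.

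The 2 measured paralogs of Pfkfb3 had no difference that passed. Pfkfb2 had differences from 6 months of -0.04 in switched livers and -0.15 in lifelong livers at 24 months, and Pfkfb4 of 0.35 and 0.25, with limma adjusted p = 0.862, 0.441, 0.0566 and 0.253 in that order. The Pfkfb4 signal was low, with group means of 4.49 to 4.84, below the array medians of 5.23 to 5.31. When 1 liver was left out, Pfkfb2 passed at 24 months without 24-month replicate 7 (-0.28, limma adjusted p = 0.00729) and Pfkfb4 in switched livers without switched replicate 3 (0.43, limma adjusted p = 0.00674). Pfkfb2 also passed there without the 2 arrays whose names carry a suffix (-0.27, limma adjusted p = 0.00921), and Pfkfb4 in 4 of 13 alternative settings (lowest limma adjusted p = 0.0384). Whether Pfkfb3 changed more than its paralogs was not tested. The 12 measured genes of the hypoxia response, which are induced by low oxygen as Pfkfb3 is known to be, had a median difference of -0.05 and 0 passes in limma at 24 against 6 months, and 4 of them had an unadjusted p under 0.05. In switched against 6-month livers 2 of the 12 were higher and 0 lower, with a median of 0.03: Egln1, an oxygen-sensing prolyl hydroxylase (0.27, limma adjusted p = 0.00892), and the pyruvate dehydrogenase kinase Pdk1 (0.39, limma adjusted p = 0.0169).

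None of the 10 measured genes of glucose uptake and phosphorylation beside the members passed in any of the 6 comparisons in limma, where 0 to 3 had an unadjusted p under 0.05. Hk1, Hk2 and Hk3, the hexokinases of other tissues, had differences of 0.12, 0.22 and -0.03 at 24 against 6 months (limma adjusted p = 0.498, 0.516 and 0.926). Their group means, 5.02 to 5.73, lay near the array medians of 5.23 to 5.31. Among 8 gluconeogenesis genes 0 passed at 24 against 6 months and 2 were lower in switched livers, 1 of them G6pc, the catalytic subunit of glucose 6-phosphatase, which releases glucose. G6pc fell by 0.56 in switched livers against 6 months (SE 0.13, limma adjusted p = 0.00557), with all 8 below the 6-month mean, and was 0.41 lower in lifelong livers at 24 months without passing (limma adjusted p = 0.0699). That 24-month difference passed without 24-month replicate 7 (-0.50, limma adjusted p = 0.0172) and in 4 of 13 alternative settings (-0.49 to -0.41, limma adjusted p of 0.0211 to 0.0461). Fbp1, which opposes phosphofructokinase, differed by 0.03 in both (limma adjusted p = 0.773 and 0.814).

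Mlxipl encodes ChREBP, the glucose-sensing factor known to act on Pklr through a carbohydrate response element in its promoter. It fell by 0.32 in switched livers against 6 months (SE 0.07, limma adjusted p = 0.00573). In lifelong livers at 24 months it was 0.12 lower without passing (limma adjusted p = 0.419). Whether the Mlxipl level bears on that of any member was not tested. Of 16 measured ChREBP targets 1 was higher and 0 lower at 24 against 6 months, and 1 was higher and 3 lower in switched livers. The 3 lower were G6pc, Mlxipl itself and the glycerol 3-phosphate dehydrogenase Gpd1 (-0.56, limma adjusted p = 0.0124). The list's median difference was 0.07 at 24 months and 0.26 in switched livers, where 9 of the 16 had an unadjusted p under 0.05. Of these, Mttp was lower without passing (-0.22, limma adjusted p = 0.0756). Thrsp (1.06), the fatty acid synthase Fasn (0.60), Acly (0.53) and Arrdc4 (0.34) were also among these without passing (limma adjusted p = 0.0595, 0.0616, 0.125 and 0.0521). The higher one in both was the desaturase gene Scd1, by 0.20 (limma adjusted p = 0.0184, lost without 6-month replicate 3 or 6) and 0.24 (limma adjusted p = 0.00183).

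In glycogen metabolism, 3 of 14 measured genes were higher and 0 lower at 24 against 6 months: Phka2, a regulatory subunit of phosphorylase kinase (0.41, limma adjusted p = 0.00484), the primer Gyg (0.40, limma adjusted p = 0.0227) and the lysosomal glucosidase Gaa (0.29, limma adjusted p = 0.0138). All 3 were also higher in switched livers, by 0.41, 0.53 and 0.26 (limma adjusted p = 0.00165, 0.0012 and 0.00956). The 24-month call was lost for Gyg without 6-month replicate 2, 3 or 6 or 24-month replicate 3, and for Gaa without 6-month replicate 6, with adjusted p in limma up to 0.0776 and 0.0637. In switched livers 4 of the 14 were higher and 2 lower. Of 13 genes for the fate of pyruvate 0 were higher and 2 lower at 24 months: Pdhx, of the pyruvate dehydrogenase complex (-0.25, limma adjusted p = 0.0430), and the lactate carrier Slc16a1 (-0.61, limma adjusted p = 0.0470), each lost in 9 of 13 fits without 1 liver and in 7 and 5 of 13 alternative settings. In switched against 6-month livers 4 of these 13 were higher and 4 lower, with a list median of 0.09. The higher ones were the monocarboxylate carrier Slc16a7 (0.53), Pdk1 (0.39), Pdk2 (0.34) and the pyruvate carrier subunit Mpc1 (0.26). The lower ones were Slc16a1 (-0.67), the phosphatase subunit Pdp2 (-0.42), Pdhb (-0.37) and Pdhx (-0.25). The list of 23 regulators had 1 pass at 24 against 6 months, Prkaa2, a catalytic subunit of AMPK, which fell by 0.30 (limma adjusted p = 0.0254) and was lost without 6-month replicate 3 or 6 or 24-month replicate 3 or 6. In switched against 6-month livers 0 of the 23 were higher and 5 lower: the insulin receptor substrate Irs1 (-0.51), the transcription factor Foxa1 (-0.47), Mlxipl (-0.32), Prkaa2 (-0.29) and the glucagon receptor Gcgr (-0.21).

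**Figure D4:**
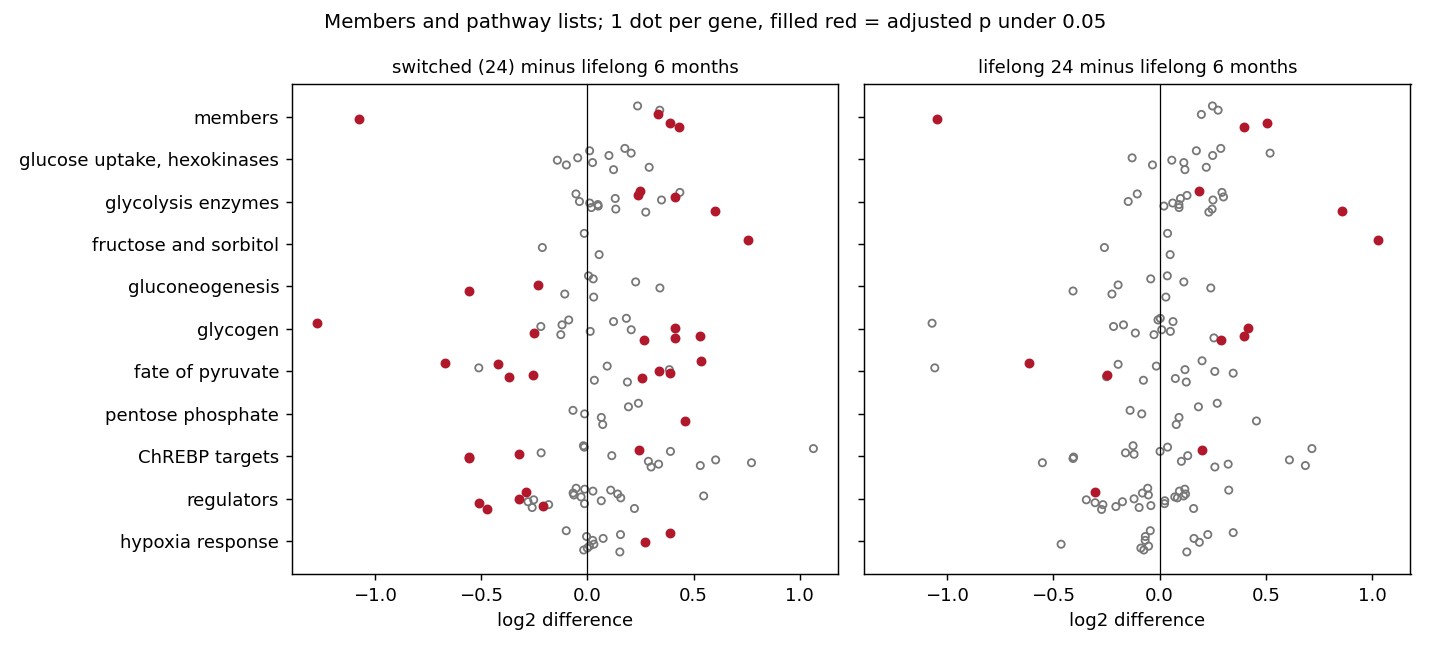
Log2 difference (horizontal axis) of the measured members and of the genes on each pathway list, 1 dot per gene, for switched livers against 6-month livers (left) and lifelong 24-month livers against 6-month livers (right); filled red dots have an adjusted p under 0.05. Pfkfb3 is the member at -1.07 and -1.05, and Slc2a5 is the filled dot on the fructose list at 0.76 and 1.03.

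Markers of other liver cell types also differed with age. B cell markers were higher at 24 against 6 months in 4 of 5 genes and in switched against 6-month livers in 3 of 5, with mean levels of 5.54 to 7.07 in switched livers and 5.43 to 6.95 in lifelong livers at 24 months, against 4.76 to 5.14 at 6 months. Of 10 macrophage markers 1, Lyz2, was higher in both comparisons, with list means of 8.17 to 10.16 in switched livers and 8.15 to 9.71 in lifelong livers at 24 months, against 8.21 to 8.81 at 6 months. Of 11 hepatocyte markers 2, Tat and Tdo2, were lower in both comparisons with 6 months and 0 were higher, and all 8 switched livers had a hepatocyte marker mean below every 6-month liver. Of 8 stellate cell markers 0 passed in limma at 24 against 6 months (3 at an unadjusted p under 0.05). In switched against 6-month livers Pdgfrb, Des and Col1a1 were higher (0.64, 0.38 and 0.42) and Hhip lower (-0.93). The stellate list had means of 7.71 to 8.04 in switched livers, against 7.65 to 7.83 at 6 months. Of 8 endothelial markers 1, Vwf, was higher in the same comparison (0.41), with list means of 8.23 to 8.80 in switched livers, against 8.40 to 8.49 at 6 months. The erythroid marker Alas2 was lower there (-0.70). None of the 5 cholangiocyte, 5 T and NK cell and 5 neutrophil markers passed in limma in either comparison. At an unadjusted p under 0.05 there were 1, 1 and 4 of them in switched livers and 1, 0 and 2 in lifelong livers at 24 months. The part of these shifts in the members' differences was not tested. Over 18 relations of members with the macrophage, B cell and hepatocyte marker means among livers of a group none passed correction. The closest were Khk (r = -0.58, rho = -0.37, permutation p = 0.00904, adjusted 0.163) and Pfkl (r = 0.52, rho = 0.38, permutation p = 0.0184, adjusted 0.165) with macrophage markers, and without the 2 livers farthest from the median macrophage mean these became -0.36 and 0.25. Switched replicate 7, the liver with the lowest switched Khk and the highest Pfkl, also had the highest macrophage mean, 10.16. For Pfkfb3 the correlation with macrophage markers was r = 0.33 (rho = 0.32, permutation p = 0.0705, adjusted 0.423).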

How the data were processed

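Liver RNA with an RNA integrity number above 8.0 was hybridised to single-colour arrays, 1 per mouse. The deposited values are log2 expression values made with RMA, per the submitters' processing notes; neither its version nor whether 1 run covered all arrays is stated in the labels. Values were used as deposited, with no filter. Array number limits the precision. Of 35556 probe sets, 21218 name 1 gene, 1881 several and 12457 none in the platform annotation.

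Groups came from the labels and batches G150, G151 and G152 from the array names, with 18 arrays in G150 and 10 in the others. limma 3.58.1 (R 4.3.3) was fitted to all 28 arrays with group and batch as terms, two-sided, with Benjamini-Hochberg adjustment across the 35556 probe sets and a threshold of 0.05; it was tested on simulated data. Python 3.11.15, scipy 1.17.1, numpy 2.4.6 and pandas 2.3.3 were used for the rest. The members and gene lists were chosen with earlier results of these data known. Beside the members, at most 4 genes per list that passed in a lifelong comparison or in switched against lifelong at 24 months were named, and fixed paralogs and partners whether they passed or not; genes behind small counts in other comparisons were named after their values were seen. Replicate numbers name different mice and did not pair them.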

Additional observations from a re-analysis of the deposited data

Results flagged for a closer look

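In 4 of the 24 sets formed by 6 members and 4 groups, 1 liver stood apart from the others of its group by Dixon's test at the 95% level, which flags about 1 set in 20 by chance. Slc2a2 was 11.01 in lifelong 12-month replicate 1, and the other 6 livers lay between 11.37 and 11.47. Pfkfb3 was 8.75 in lifelong 12-month replicate 2, against 7.32 to 7.87 in the others, and 8.04 in lifelong 24-month replicate 6, against 6.78 to 7.25. Pfkl was 7.78 in lifelong 6-month replicate 2, where the others lay between 7.39 and 7.53.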

How the results depend on the processing

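Replicate numbers did not pair mice: residuals of same-numbered livers correlated at -0.27 to 0.31 over 39 pairs, with a median of 0.01. With the replicate number as a block, 1 member passed at 12 against 6 months in place of 3, and probe sets passing numbered 122 in place of 210 there, 0 in place of 9 at 24 against 12 months, 2 in place of 7 at switched against lifelong livers and 294 in place of 826 at switched against 12-month livers. The 12-against-6-month count was also 1 without the 2 arrays whose names carry a suffix, and 0 within G150, within G151 and G152, and with only these groups fitted. At 24 against 6 months it was 0 within G150 and 0 within the other batches, in place of 3, and for switched against 6-month livers 1 and 0 in place of 4; these fits hold fewer arrays. Leaving out 1 liver gave 0 to 4 members at 12 against 6 months, 2 to 4 at 24 against 6 months, 3 to 5 for switched against 6-month livers and 0 in the other 4 comparisons. Gckr and Khk stayed past the threshold at 24 against 6 months in all 13 such fits; at 12 against 6 months Gckr was lost in 6 of 13, Slc2a2 in 9 and Khk in 10, with adjusted p up to 0.0855, 0.115 and 0.146. Pklr passed at 12 against 6 months without 12-month replicate 1 (adjusted p = 0.0331), and Slc2a2 at 24 against 6 months without 6-month replicate 1 (adjusted p = 0.0312).

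Signs turned in differences that had not passed. Within G150, Gckr (-0.0118) and Khk (-0.0023) turned at 24 against 12 months, Slc2a2 (0.0165) at switched against lifelong livers of 24 months, and the step difference of Pfkl became 0.0066. Within G151 and G152, Gckr was -0.0391 at switched against lifelong, Khk 0.0258 and Pklr 0.0089 at switched against 12-month livers, Hk3 0.240 and 0.187 and Pfkfb2 0.0451 and 0.0838 at 24-month and switched against 6-month livers. The replicate block gave 0.026 for Slc2a2 and 0.023 for Pfkfb3 at switched against lifelong. Without 1 liver, switched minus lifelong ran from -0.0408 to 0.0209 for Slc2a2, -0.0049 to 0.140 for Pklr and -0.102 to 0.148 for Pfkfb3, Khk from -0.0896 to 0.0223 against 12-month livers, and Hk3 from -0.136 to 0.0451 at 24 against 6 months. The cause of these changes was not tested. Over the members, of 624 results without 1 liver 578 kept direction and side of the threshold, 31 lost their call, 6 gained one and 9 changed sign; of 546 under other alternatives these numbers were 497, 31, 9 and 9.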
